A study of Mus musculus with 6 samples.

Results

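The semaphorins, plexins, ephrins, Eph receptors, Slits and Robos were described in nuclei of the mouse cortex. They were taken by symbol from the gene list of the matrices, antisense rows being left out, which gave 58 genes of 32285: 20 semaphorins, 9 plexins, 14 Eph receptors, 8 ephrins, 3 Slits and 4 Robos. Each was followed across 9 cell types and 3 groups of mice.

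These families were named for steering growing axons, and many members stay on in the adult brain. Semaphorins are secreted or membrane-bound ligands that act through plexins, the secreted class 3 members mostly with a neuropilin as coreceptor. Plexins switch off Ras-family GTPases and rearrange the cytoskeleton. Ephrins are tethered to the membrane and bind Eph receptor tyrosine kinases on the neighbouring cell, with signals running in both directions. Slits are large secreted proteins that repel cells through Robo receptors. In the mature brain these genes are known for roles in blood vessels, in the spacing and migration of oligodendrocyte precursors, and at synapses.

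Nuclei were profiled in 6 RNA-seq libraries made with 10x Genomics 3' chemistry from the cortex of mice aged 7.5 months. Nuclei had been sorted for absence of NeuN, a protein of neuronal nuclei. All mice carried 5xFAD, a set of mutant human transgenes expressed in neurons, which gives amyloid plaques. The 3 groups, each of 2 libraries numbered 2 and 3, were 5xFAD alone, 5xFAD-M28L and 5xFAD-P522R, which carry the M28L or the P522R variant of phospholipase C-γ2 (gene Plcg2). By the labels nuclei of male and female mice were pooled in each library. No group without 5xFAD was analysed here.

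Libraries held 9269 to 13783 barcodes and 53326947 to 72288942 UMIs, with medians of 3842 to 4972 UMIs per barcode, and any pair of libraries shared 20 to 71 barcode sequences. Of 62651 nuclei that passed quality limits, 55816 were given a cell type by marker genes, none of which is a guidance gene. There were 33869 oligodendrocytes, 6742 oligodendrocyte precursors (OPCs), 213 committed oligodendrocyte precursors (the stage between), 7876 microglia, 4090 astrocytes, 1124 excitatory and 617 inhibitory neurons, 433 endothelial cells and 399 pericytes or smooth muscle cells. The neurons are those that came through the sort. Near the limit of the gate lay 30.5% of the excitatory, 27.6% of the inhibitory and 12.3% of the OPC nuclei, and in OPCs the inhibitory marker list summed to 2205 to 2713 CPM (counts of a type's UMIs in a library, scaled for depth), so these names are less sure than that of endothelial nuclei, with 2.31% near the limit. Plcg2 lay at 388 to 472 CPM in microglia and at 2.58 to 10.5 CPM in oligodendrocytes. Both variants change the protein, so this level does not check the labels.

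The stretches before the start sites of 4 guidance genes are shown because of where their levels were highest in the results that follow. The highest mean was in endothelial cells of the vessels for Ephb4 and Robo4, and in the oligodendrocyte lineage for Plxnb3 and Sema3d. Ephb4 had its second-highest mean in astrocytes. The stretches are from RefSeq (GRCm38.p6), hold up to 250 bases and are cut where they would run into the GENCODE gene. That of Sema3d ends before its GENCODE gene, which begins at chr5:12383385. Capitals mark the ETS core GGAAGT in the vessel genes and the SOX cores ACAAAG and ACAATG in the lineage genes, on both strands.
Ephb4, chr5:137349859-137350108, plus strand: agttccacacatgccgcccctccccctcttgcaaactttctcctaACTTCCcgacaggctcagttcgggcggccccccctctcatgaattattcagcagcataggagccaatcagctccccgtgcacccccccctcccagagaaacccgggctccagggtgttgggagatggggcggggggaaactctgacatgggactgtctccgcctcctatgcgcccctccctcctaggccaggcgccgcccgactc
Robo4, chr9:37401722-37401896, plus strand: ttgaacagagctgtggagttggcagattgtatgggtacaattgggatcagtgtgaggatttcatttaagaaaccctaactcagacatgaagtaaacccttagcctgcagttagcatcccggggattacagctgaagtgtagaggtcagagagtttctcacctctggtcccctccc
Plxnb3, chrX:73756853-73757089, plus strand: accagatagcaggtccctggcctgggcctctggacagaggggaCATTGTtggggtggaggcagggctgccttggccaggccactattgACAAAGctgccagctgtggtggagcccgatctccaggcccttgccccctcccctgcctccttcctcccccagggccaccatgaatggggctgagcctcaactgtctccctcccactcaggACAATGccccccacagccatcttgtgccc
Sema3d, chr5:12382916-12383165, plus strand: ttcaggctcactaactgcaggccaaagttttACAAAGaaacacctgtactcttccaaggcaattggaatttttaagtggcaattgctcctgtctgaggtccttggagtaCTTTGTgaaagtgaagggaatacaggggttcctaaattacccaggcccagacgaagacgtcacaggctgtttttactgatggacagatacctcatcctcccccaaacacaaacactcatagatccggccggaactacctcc
ETS proteins are known for endothelial genes and SOX proteins for the oligodendrocyte lineage. Of 7 endothelial guidance genes looked up (with Sema3g, Sema3c, Sema7a, Plxna2 and Plxnd1), 1 held the ETS core within 250 bases, where 5401 of all 27025 promoters held it. Of 6 lineage genes with an entry (with Sema5a, Sema5b, Sema4d and Sema6d), 3 held a SOX core, where 6887 did. Plxnb3 held 3 matches, Sema3d 2 and Sema4d 1. The stretch of Sema4d lies wholly inside its GENCODE gene, as those of Sema3c and Plxna2 do. A match is a description of letters and not a site.

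Across the 9 cell types, guidance genes were spread over every type, and most had a level that stood out in 1 or a few of them. The type with the highest mean level was the excitatory neuron for 14 genes, the endothelial cell for 13, the inhibitory neuron for 11, the committed precursor for 6, the oligodendrocyte and the astrocyte for 4 each, and the OPC, the microglia and the pericyte for 2 each. For 25 of 58 the lowest of the 6 library values in the highest type lay above every library value of the second type. For the others the values of these types overlapped. Examples are Epha4 (excitatory neuron 279 ± 26.7, endothelial 266 ± 72.1 CPM, mean ± SD, n = 6 libraries) and Ephb1 (oligodendrocyte 501 ± 50.5, astrocyte 438 ± 32.6). Levels are compared between types and not between genes, because long introns and transcript ends also set the UMIs of a gene.

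By the type of the highest mean, the excitatory neuron had Efna5, Epha10, Epha4, Epha7, Epha8, Ephb2, Ephb6, Plxna1, Robo3, Sema3a, Sema3f, Sema4f, Slit1 and Slit3, and the inhibitory neuron Efna4, Efnb2, Epha3, Epha5, Epha6, Plxna4, Plxnc1, Robo1, Robo2, Sema6c and Slit2. The endothelial cell had Efna1, Efna3, Efnb1, Ephb4, Plxna2, Plxnd1, Robo4, Sema3b, Sema3c, Sema3g, Sema4c, Sema6b and Sema7a, and the pericyte Epha1 and Epha2. Within the oligodendrocyte lineage the OPC had Sema3e and Sema6d, the committed precursor Plxna3, Plxnb3, Sema3d, Sema4d, Sema5a and Sema5b and the oligodendrocyte Efna2, Efnb3, Ephb1 and Sema6a. The astrocyte had Ephb3, Plxnb1, Sema4a and Sema4b and the microglia Plxnb2 and Sema4g. Some of these rest on few UMIs, as the 4 genes left out of the tests do. On GRCm38 Robo1 (ENSMUSG00000022883) spans chr16:72308306-73046095 on the plus strand, Robo2 (ENSMUSG00000052516) spans chr16:73891839-74411825 on the minus strand, and Plxnb2 (ENSMUSG00000036606) chr15:89155549-89180788 on the minus strand.

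**Figure D1:**
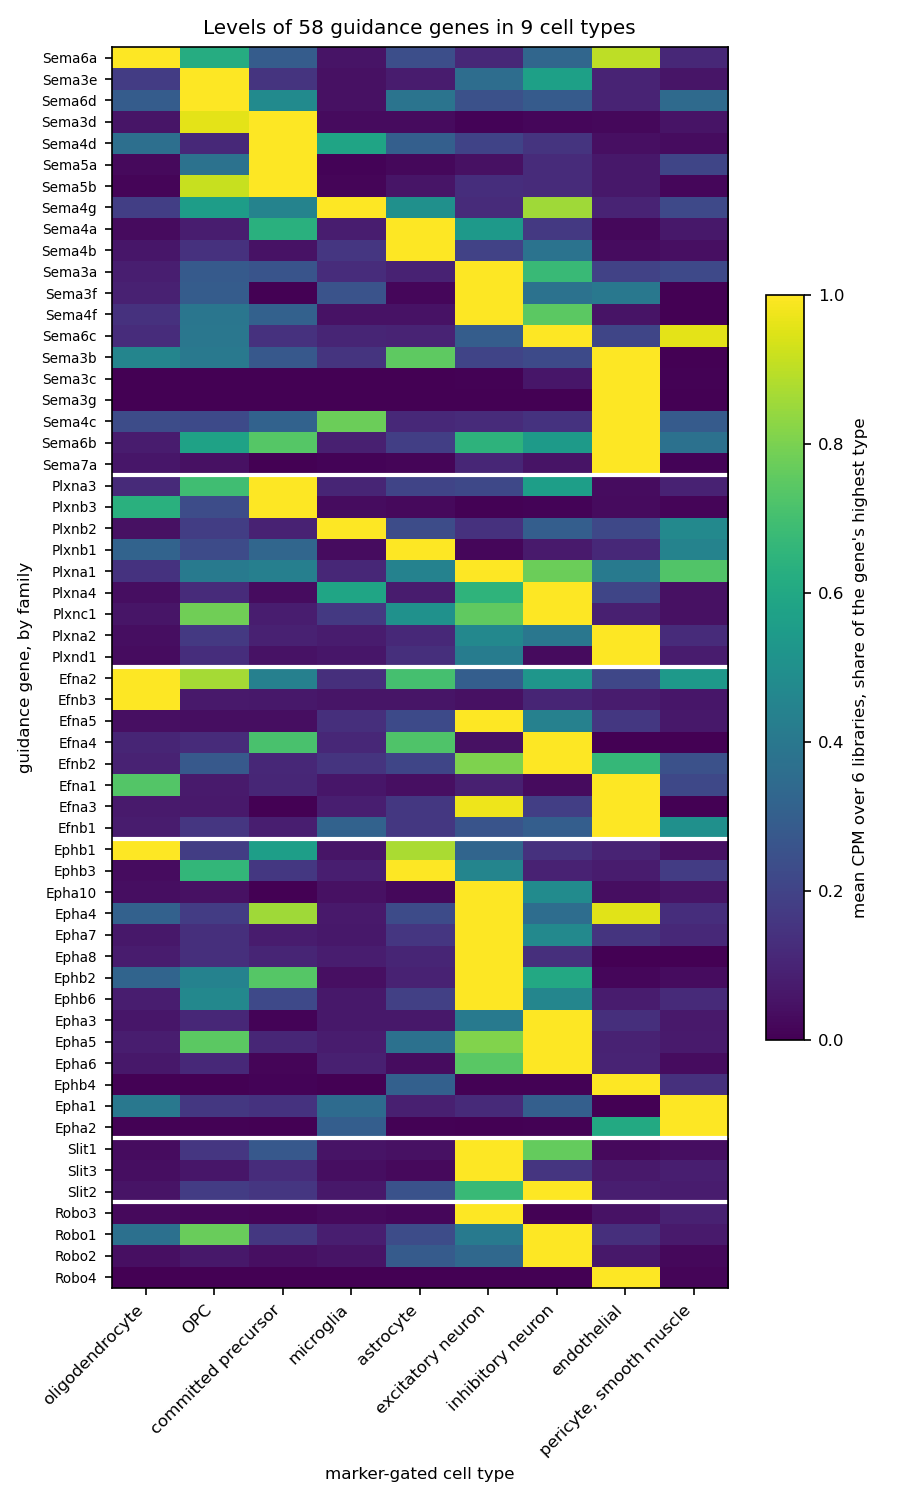
Each row is 1 of the 58 guidance genes, sorted by family (semaphorins, plexins, ephrins, Eph receptors, Slits, Robos from top to bottom), and each column a cell type. Colour gives the mean CPM over 6 libraries as a share of the gene's highest type, so rows compare types and not genes. Rows bright in both neuron columns occur in several blocks, among them Epha5, Slit1, Plxna1, Efnb2 and Sema4f. Sema3c, Sema3g and Robo4 are bright in the endothelial column alone.

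Each type was then tested against the mean of the other 8, with edgeR's quasi-likelihood test and the library as a term. A gene was called higher at an adjusted p under 0.05 and a log2 fold of at least 1. The filter on low counts passed 54 of 58 genes, and all 54 were called higher in at least 1 type, beside 69.1% of all 16447 genes tested. The 4 that did not pass (Efna4, Epha1, Epha8 and Sema3b) had 83 to 314 UMIs in all types together. Excitatory neurons had 33 of 54 (61.1%) called higher, beside 24% of all genes tested, and inhibitory neurons 27 (50%), beside 18.5%. The counts were 17 in OPCs (31.5%, beside 17.6% of all genes), 16 in endothelial cells (29.6%, beside 17.3%), 13 in committed precursors (24.1%, beside 8.96%), 10 in oligodendrocytes (18.5%, beside 12.4%), 9 in astrocytes (16.7%, beside 17.2%), and 6 each in microglia (11.1%, beside 17.7%) and pericytes (11.1%, beside 9.65%).

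In the other direction, microglia had 34 of the 54 called lower, where 18.9% of all genes tested were. The counts of lower genes were 24 in oligodendrocytes (16.7% of all genes), 22 in endothelial cells (13.6%), 20 in pericytes (13.3%), 15 in astrocytes (9.29%), 14 in committed precursors (10.7%), 6 in excitatory neurons (12.8%), 5 in inhibitory neurons (10.5%) and 3 in OPCs (4.35%). The median log2 fold of the guidance genes ran from -1.41 in microglia (all genes -0.04) to 1.79 in excitatory neurons (all genes 0.09). The mean of the other types is a mean of logs, so a gene without UMIs in several types gets a large fitted fold that depends on a small added count; for such genes the levels are given in its place.

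**Figure D2:**
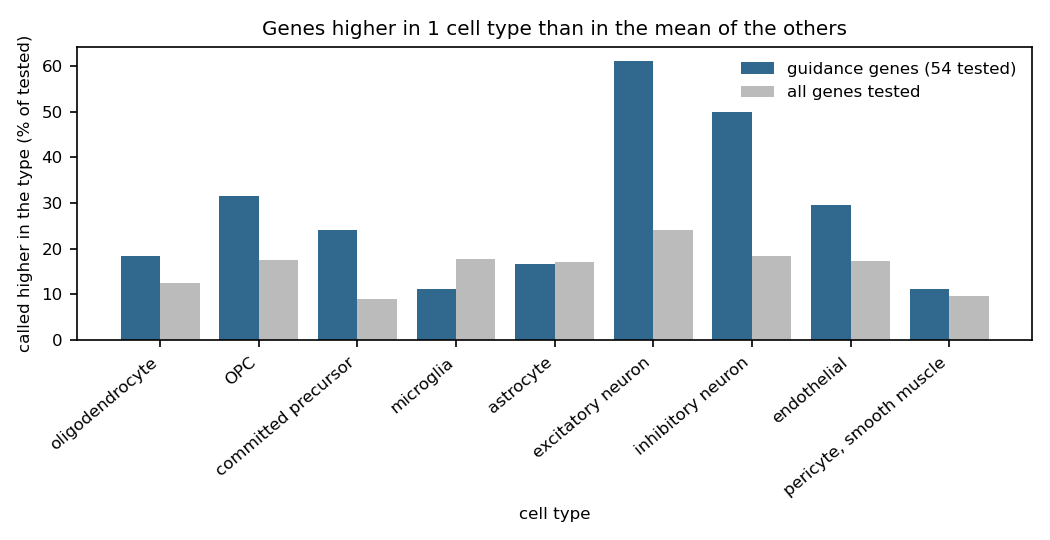
Bars give the percentage of tested genes called higher in each cell type than in the mean of the other types, for the guidance genes (54 tested) and for all genes tested (16447). The 2 neuron types stand at 61.1% and 50% for guidance genes against 24% and 18.5% for all genes, while in microglia the order is the other way (11.1% against 17.7%).

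Neurons held all 3 Slits, 3 of the 4 Robos and most Eph receptors. Slit3, a secreted repellent, had 1001 and 875 CPM in excitatory neurons of 5xFAD (replicates 2 and 3), 1362 and 1169 in 5xFAD-M28L and 997 and 1027 in 5xFAD-P522R. Its second type, the inhibitory neuron, had 166 ± 62.3 CPM, and every excitatory value lay above every inhibitory one. The log2 fold of excitatory neurons against the other types was 4.49 (SE 0.116, adjusted p = 2.46e-37). Slit1, called also in committed precursors, and Slit2 were called in both neuron types (log2 fold 4.07 and 2.65 in excitatory, 3.35 and 2.97 in inhibitory neurons). Robo2, a Slit receptor, ran from 984 to 2396 CPM in inhibitory neurons (median 1826) and was at 570 ± 46.5 in excitatory neurons and 488 ± 68.2 in astrocytes. Its log2 fold in inhibitory neurons was 3.87 (SE 0.140, adjusted p = 4.72e-30). Robo1 was broader, with 1360.0 ± 340.2 CPM in inhibitory neurons, 1048 ± 65.1 in OPCs, 558 ± 71.8 in excitatory neurons and 504 ± 32.6 in oligodendrocytes. Its values in inhibitory neurons and OPCs overlapped.

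Robo3, known for axons that cross the midline, had 25.5 to 34.7 CPM in excitatory neurons and was called in that type alone of the 9. Among Eph receptors, 10 of the 12 tested were called higher in excitatory neurons, beside 24% of all genes tested. In inhibitory neurons 7 were, beside 18.5% of all genes. Epha10, a member without kinase activity, had 126 to 168 CPM in excitatory neurons (median 142) and 70.3 ± 27.8 in inhibitory neurons, against 4.78 to 7.85 in oligodendrocytes. Both neuron types were called (log2 fold 5.63, SE 0.134, adjusted p = 2.18e-36, and 4.14, SE 0.246, adjusted p = 6.37e-20). Epha6 and Epha3 were highest in inhibitory neurons, with 928 ± 154 and 224 ± 63.5 CPM (log2 fold 3.97 and 3.76). Of their ligands, Efna5 had 650.1 ± 46.3 CPM in excitatory and 285 ± 70.1 in inhibitory neurons. Efna3 was called in excitatory neurons at only 5.67 ± 1.34 CPM, and its endothelial level (5.81 ± 4.37) overlapped.

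In the oligodendrocyte lineage, 3 semaphorins stood high in OPCs and committed precursors and low in mature oligodendrocytes. Sema5a, a transmembrane ligand, had 775 to 1557 CPM in committed precursors (median 1037), 383 to 441 in OPCs and 23.8 to 32.9 in oligodendrocytes. Sema5b had 203 to 487, 303 to 384 and 4.45 to 7.05 CPM in the same types. Sema3d, a secreted ligand, had 425 ± 114 (lowest 239), 356 to 475 and 22.1 to 25.4 CPM. These ranges did not overlap between either precursor stage and the mature cells in any of the 3 genes. All 3 were called higher in both precursor stages, with log2 folds of 2.68 to 4.70. Sema3e was called in OPCs and in both neuron types but not in committed precursors, where it had 26.5 ± 20.8 CPM (OPC 177 ± 11.4 CPM, log2 fold 3.17, SE 0.103, adjusted p = 1.09e-32).

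Sema6d, a transmembrane ligand of class A plexins, had 1520 and 1563 CPM in OPCs of 5xFAD, 1493 and 1561 in 5xFAD-M28L and 1482 and 1406 in 5xFAD-P522R. These values lay close together and above every value of the next type, committed precursors at 717 ± 122. OPCs were the 1 type in which Sema6d was called higher (log2 fold 2.40, SE 0.084, adjusted p = 3.13e-31).

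Other genes were high in mature oligodendrocytes, some of them in further types too. Efnb3, a transmembrane ephrin, had 143 and 117 CPM in 5xFAD, 160 and 117 in 5xFAD-M28L and 169 and 138 in 5xFAD-P522R. Its next type, the inhibitory neuron, had 14.8 ± 4.75 CPM, which is 9.50 times less, and OPCs had 9.63 ± 2.29. Oligodendrocytes were the 1 type called for Efnb3 (log2 fold 4.16, SE 0.064, adjusted p = 6.08e-48). Plxnb3, a class B plexin, had 61.1 ± 7.57 CPM in OPCs, 261 ± 29.7 in committed precursors and 165 ± 14.3 in oligodendrocytes, against 8.39 ± 1.67 in microglia. It was called in all 3 lineage types (log2 fold 2.67, 4.72 and 4.27). Sema4d, a ligand that binds class B plexins, had 443 ± 78.6 CPM in committed precursors and 161 ± 14.4 in oligodendrocytes, and 51.0 ± 5.22 in OPCs. Sema6a and Ephb1 were called in oligodendrocytes (log2 fold 2.29 and 2.73), at 454 ± 62.4 and 501 ± 50.5 CPM. Sema6a was called in endothelial cells too (log2 fold 1.67), at 409 ± 71.4 CPM, where its values overlapped with those of oligodendrocytes, and in OPCs (log2 fold 1.53). Efna1 was called in oligodendrocytes as well (log2 fold 3.04), at 9.54 to 15.4 CPM. Its highest mean was in endothelial cells (16.9 ± 8.68 CPM), where it was called too.

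**Figure D3:**
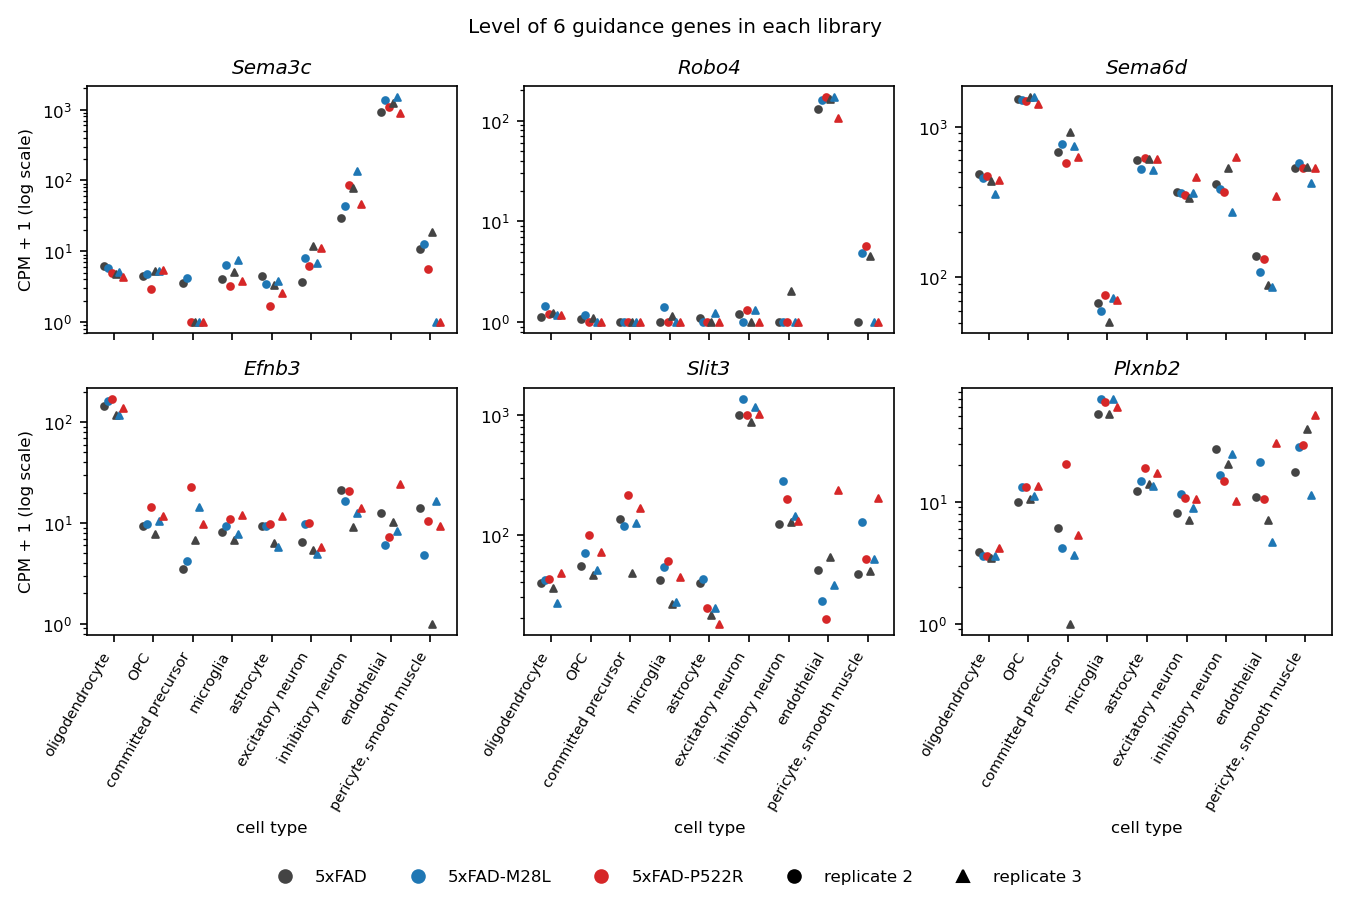
Level of 6 guidance genes in each library (points; colour gives the group and shape the replicate number) by cell type, as CPM + 1 on a log axis. Each gene has a type whose 6 libraries sit together above the rest: endothelial cells for Sema3c and Robo4, OPCs for Sema6d, oligodendrocytes for Efnb3, excitatory neurons for Slit3 and microglia for Plxnb2.

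Endothelial cells held the sharpest contrasts between types. Sema3c, a secreted semaphorin, had 914.5 and 1253 CPM in 5xFAD, 1342 and 1490 in 5xFAD-M28L and 1093 and 892 in 5xFAD-P522R. Every endothelial value lay far above the next type, the inhibitory neuron at 28.7 to 134 CPM, and oligodendrocytes had 3.37 to 5.26. The mean was 17.0 times that of inhibitory neurons. Robo4, the Robo of endothelial cells, had 129 and 165 CPM in 5xFAD, 161 and 169.6 in 5xFAD-M28L and 170.1 and 105 in 5xFAD-P522R, from 346 UMIs. Pericytes had 3 UMIs of it in all libraries together. Sema3g had 18.3 to 95.9 CPM in endothelial cells from 83 UMIs, and 1 library (5xFAD-M28L replicate 3) held the highest value. Sema7a, a lipid-anchored semaphorin, had 146 to 369 CPM (median 248) and a log2 fold of 5.18 (SE 0.149, adjusted p = 4.10e-35). It was also called in oligodendrocytes and excitatory neurons, at means of 15.3 and 27.4 CPM.

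Of the receptors, Plxnd1, a plexin of developing vessels, had 61.1 ± 23.3 CPM in endothelial cells and a log2 fold of 3.44 (SE 0.217, adjusted p = 5.03e-20). It was called in excitatory neurons too, at 25.6 ± 6.96 CPM. The values of these types overlapped (lowest endothelial 29.2, highest excitatory 33.7 CPM). Plxna2 had 650 ± 166 CPM there and was also called in both neuron types. Ephb4, the receptor that marks veins, had 44.1 to 84.8 CPM in endothelial cells and 14.6 to 20.4 in astrocytes, and both types were called. Efnb2, the ephrin that pairs with it in arteries, had 17.5 to 66.9 CPM in endothelial cells and was called there and in both neuron types, with its highest mean in inhibitory neurons. Endothelial values rest on as few as 21 nuclei in 5xFAD-P522R replicate 3.

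In pericytes and smooth muscle cells, Epha2 had 13.1 to 23.5 CPM from 23 UMIs and was called higher, as in endothelial cells and microglia. Sema6c, Sema5a and Plxnb1 were called there too. Ephb4 was called at 12 UMIs and Robo4 at 3, and endothelial markers summed to 586 to 1086 CPM in this gate, against 16543 to 23620 in endothelial cells. Their part in the calls of Ephb4 and Robo4 was not tested. The call of Robo4 (log2 fold 2.74, adjusted p = 0.0378) was lost with no filter on low counts (0.0649) and without 5xFAD-M28L replicate 2 (adjusted p = 0.115), 5xFAD-P522R replicate 2 (0.157) or 5xFAD replicate 3 (0.0968).

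Microglia had few guidance genes but several at sizeable levels. Plxnb2, a receptor of Sema4 ligands, had 51.2 and 51.1 CPM in 5xFAD, 68.2 and 68.6 in 5xFAD-M28L and 64.2 and 58.3 in 5xFAD-P522R. All 6 values lay above those of the second type, pericytes, at 28.4 ± 14.4 CPM, and microglia were the 1 type called (log2 fold 2.29, SE 0.103, adjusted p = 8.72e-27). Plxna4 had 514 ± 95.2 CPM in microglia, with the highest value in 5xFAD replicate 2 (677), and 31.2 ± 6.55 in oligodendrocytes. It was called in microglia (log2 fold 1.99, SE 0.101, adjusted p = 1.97e-24) and in both neuron types, where it was higher still (877 ± 120 and 570 ± 41.1 CPM). Sema4d had 221 to 297 CPM in microglia (log2 fold 1.61), Sema4g 18.6 to 30.7 (1.49) and Sema4c 18.4 ± 2.14 (1.49). Epha2 was called at 1.81 to 8.73 CPM. All 3 Slits, and Robo1 and Robo2, were called lower in microglia than in the other types.

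Astrocytes held a class B plexin with 2 class 4 semaphorins. Plxnb1 had 113 to 155 CPM (median 131), Sema4b 75.7 to 101 and Sema4a 68.9 to 94.7, with log2 folds of 3.08 (SE 0.074), 3.42 (SE 0.103) and 3.31 (SE 0.097). Every astrocyte value of Plxnb1 and Sema4b lay above those of each other type, while Sema4a overlapped with committed precursors. The adjusted p were 4.48e-39, 1.32e-34 and 5.70e-35. Ephb1 and Ephb3 were also called in astrocytes, with Ephb1 at 438 ± 32.6 CPM.

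Types with too few nuclei for a test are given by their levels alone. In 295 fibroblasts pooled over libraries, Plxna2 had 1833 CPM, Robo1 1640, Epha7 481 and Sema3a 307, each from 478 or more UMIs. For each gene this level lay above the highest mean of the tested types (650, 1360, 219 and 67.8 CPM in the same order). Near the limit of the gate lay 40.7% of the fibroblast nuclei. In 119 border macrophages Plxna4 had 192 and Plxnc1 190 CPM, from 88 and 87 UMIs, and Plxnb2 33 from 15. In 32 T cells Sema4d had 247 CPM from 20 UMIs.

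Genes that work with these families came from 5 lists (coreceptors of semaphorins, other guidance ligands and receptors, and effectors of plexins, Eph receptors and Robos). The coreceptor Nrp1 was highest in microglia, at 507 to 797 CPM, ahead of endothelial cells at 278 ± 64.6, and was called there (log2 fold 3.23, SE 0.124, adjusted p = 9.40e-30). Nrp2 was also highest in microglia, at 118 to 201 CPM (log2 fold 1.45, SE 0.114). Kdr, the VEGF receptor, was highest in endothelial cells at 247 ± 44.3 CPM. All 4 coreceptors tested and all 22 other ligands and receptors were called higher in the type of their highest level, where 18 of 21 plexin effectors (85.7%), 15 of 18 Eph effectors (83.3%) and 8 of 10 Robo effectors (80%) were. Of all genes tested, 69.1% were called higher in at least 1 type. The type was picked for the highest level, so these counts are a description. Among effectors, Fes was highest in microglia (88.7 ± 5.16 CPM), Rras in endothelial cells (56.7 ± 15.0), Srgap2 in microglia (2622 ± 340), Srgap1 in OPCs (771 ± 111), Fyn in committed precursors (5466 ± 481) and Grip1 in inhibitory neurons (3742 ± 813). Of other ligands and receptors, Draxin was highest in inhibitory neurons (19.2 ± 12.6 CPM) and Unc5d in excitatory neurons (882 ± 58.2).

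The study asks how the variants of Plcg2 alter the cells, and each type was compared between groups. No guidance gene passed in any of 9 types and 3 contrasts by edgeR without a term for the replicate number, at an adjusted p of 0.05 over all genes of a type and contrast (335 tests of a gene in a type per contrast). At an unadjusted p under 0.05, 45 of 335 were found for M28L against 5xFAD (13.4%, beside 7.74% of tests over all genes), 60 for P522R against 5xFAD (17.9%, beside 9.29%) and 46 for P522R against M28L (13.7%, beside 6.35%), not matched for level. DESeq2 called 2, 2 and 0 of them, and edgeR with no filter on low counts 13, 21 and 22. With a term for the replicate number, edgeR called some in each of the 3 contrasts. Among them were 4, 8 and 3 in OPCs, and 5 in excitatory neurons for M28L against 5xFAD. The full counts are given in the closing section. The 3 contrasts share groups. Very few genes of any kind passed. The share of all genes called was 0% except for P522R against 5xFAD in oligodendrocytes (0.012%), OPCs (0.00644%), inhibitory neurons (0.0311%) and pericytes (0.0206%), M28L against 5xFAD in committed precursors (0.0332%), microglia (0.00702%) and pericytes (0.0206%), and P522R against M28L in committed precursors (0.0831%) and inhibitory neurons (0.0207%).

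In data simulated at these depths for P522R against M28L, with 200 genes changed, the same test found 88% of 2-fold changes in oligodendrocytes, 83% in microglia, 71% in astrocytes and 23% in endothelial cells. For 4-fold changes it found all in the first 3 types and 90% in endothelial cells. The changed genes were drawn only from genes with many UMIs in the type, and all genes were given the same spread. These rates therefore do not cover guidance genes with few UMIs or with a larger spread.

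Microglia express Plcg2, and their guidance genes are given first. With 45 tested, the median log2 fold was 0.21 for M28L over 5xFAD (31 positive), 0.26 for P522R over 5xFAD (37 positive) and 0.13 between the variants (27 positive), beside medians of all genes of -0.00145, 0.00151 and -0.00375. This direction against 5xFAD was not particular to microglia. In OPCs, with 48 tested, the medians were 0.15 for M28L (38 positive) and 0.20 for P522R (35 positive). Between the variants the OPC median was -0.00474 (23 positive). All genes in OPCs had medians of -0.00691, -0.00360 and -0.00449. In microglia the smallest unadjusted p for M28L against 5xFAD was that of Plxnb2. In normalized CPM (scaled by TMM), Plxnb2 had 51.4 and 51.0 in 5xFAD, 68.8 and 70.2 in 5xFAD-M28L and 62.9 and 58.5 in 5xFAD-P522R. All 4 libraries of the variants were higher than those of 5xFAD. For M28L the difference was 0.44 on the log2 scale (SE 0.108, adjusted p = 0.784).

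Robo1 had 93.4 and 96.1 normalized CPM in 5xFAD, 86.7 and 114 in 5xFAD-M28L and 139 and 161 in 5xFAD-P522R. Both P522R libraries lay above the other 4. The log2 fold was 0.66 against 5xFAD (SE 0.143, adjusted p = 0.350, and 8.36e-05 to 0.901 over the alternatives) and 0.58 against M28L (SE 0.143, adjusted p = 0.493, and 0.00200 to 0.998). Slit1 had 3.82 and 2.81 in 5xFAD and 8.33 and 10.1 in 5xFAD-P522R (1.51, SE 0.380, adjusted p = 0.388). Epha6 had 56.5 and 53.9 in 5xFAD and 162 and 82.7 in 5xFAD-P522R (1.14, SE 0.302, adjusted p = 0.434), with replicate 2 above replicate 3. These 3 genes were highest in neurons. The inhibitory marker list in the microglia gate had its highest value in 5xFAD-P522R replicate 3, while replicate 2 of that group lay below 5xFAD-M28L replicate 3. It summed to 176 and 126 CPM in 5xFAD, 128 and 237 in 5xFAD-M28L and 212 and 361 in 5xFAD-P522R, all 11 markers having UMIs, against 6517 to 10269 in inhibitory neurons. The excitatory list gave 116 to 183 CPM. Their part in the result was not tested. The share of Xist-positive among sexed microglia ran from 47.3% to 74.6% over libraries, with 74.6% and 71.8% in 5xFAD-P522R, and its part was likewise not tested.

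The other microglial genes taken by smallest p were low or little apart. For M28L against 5xFAD these were Epha5 (0.46), Ephb6 (1.38, at 0.843 to 2.70 normalized CPM), Slit2 (-0.86), Epha7 (-0.44) and Efna5 (-0.24), with adjusted p of 0.784 to 0.788. For P522R against 5xFAD they were Sema3d (-0.46), Sema4b (-0.41) and Sema3c (-0.52), with adjusted p of 0.535 to 0.670. Between the variants, P522R lay above M28L for Efna5 (0.47, 96.2 and 108 against 77.6 and 70.0 normalized CPM) and Ephb2 (1.38), and below for Sema3c (-1.25), Sema3d (-0.59) and Ephb6 (-1.07), with adjusted p of 0.534 to 0.703. Sema3c in microglia stood at 2.15 to 6.61 normalized CPM, and endothelial markers in that gate summed to 59.9 to 191 CPM. Their part was not tested.

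**Figure D4:**
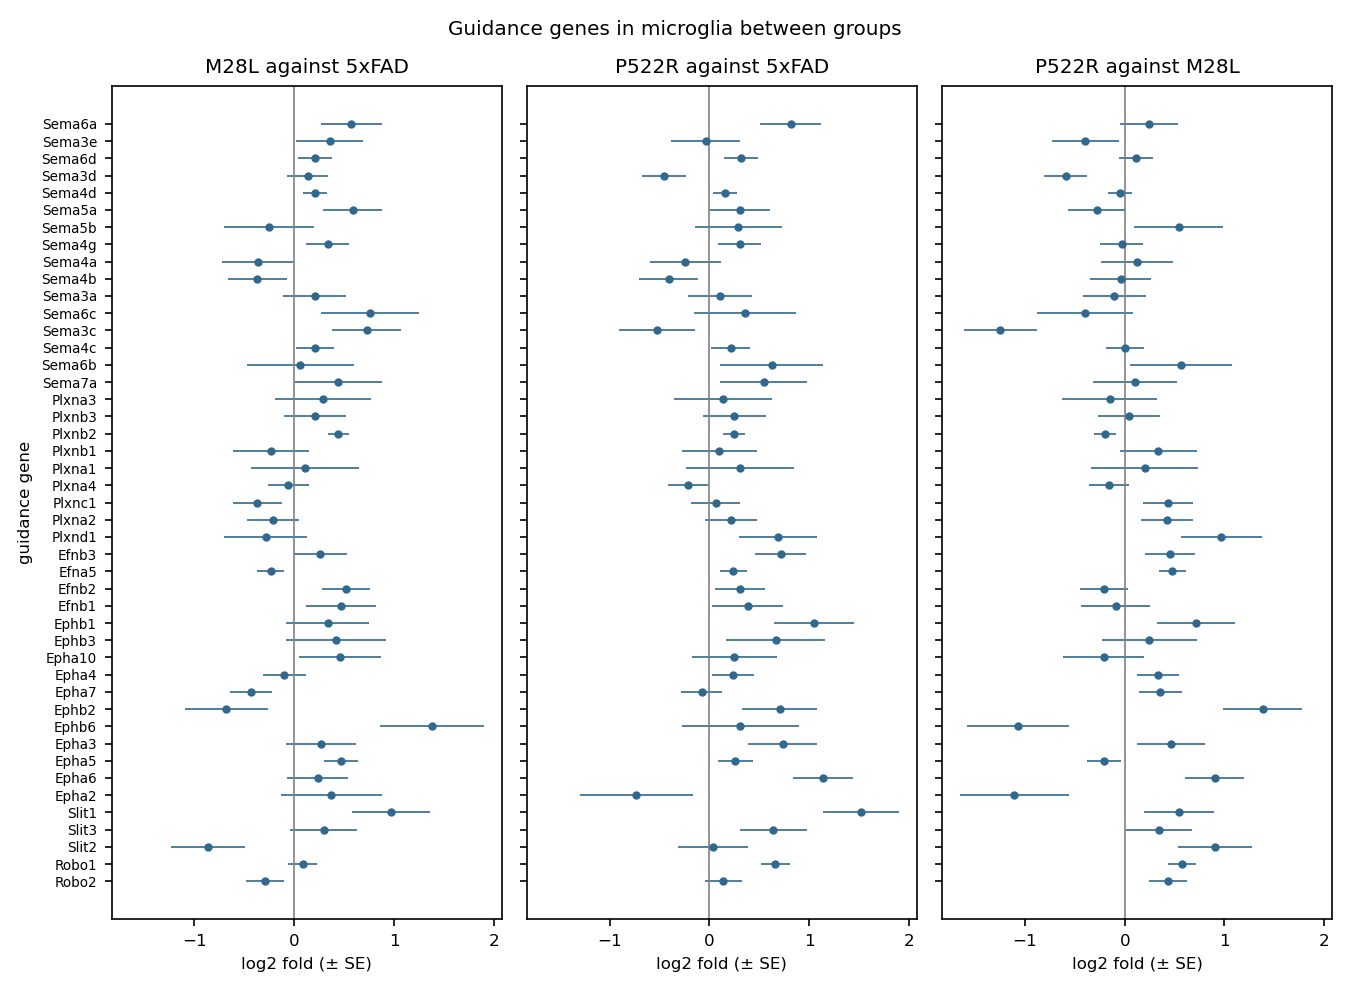
Log2 fold with its standard error of the 45 guidance genes tested in microglia, for each variant against 5xFAD and for P522R against M28L (2 libraries a group, 1 fit). Points right of 0 prevail against 5xFAD (31 and 37 of 45), and none passed at an adjusted p of 0.05; Plxnb2 in the first panel and Robo1 in the other panels have small standard errors beside their folds.

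The smallest adjusted p of any type was that of Robo2 in inhibitory neurons. Robo2 had 2469 and 1917 normalized CPM in 5xFAD, 2016 and 1835 in 5xFAD-M28L and 1177 and 999.9 in 5xFAD-P522R. Both P522R libraries lay below the other 4, with a log2 fold of -1.01 against 5xFAD (SE 0.208, adjusted p = 0.148) and -0.82 against M28L (SE 0.208, adjusted p = 0.343). DESeq2 called the first of these (adjusted p = 0.00687), and over all alternatives its adjusted p ran from 0.000456 to 0.917. The inhibitory marker list summed to 8825 and 8104 CPM in 5xFAD, 10269 and 8581 in 5xFAD-M28L and 7098 and 6517 in 5xFAD-P522R. The gate held 78 to 172 nuclei per library. Whether fewer nuclei of a kind of inhibitory neuron or less Robo2 per nucleus lies behind the values was not tested. Epha10 lay the other way in the same nuclei, at 47.9 and 74.3 in 5xFAD and 86.4 and 117 in 5xFAD-P522R (0.74, adjusted p = 0.425; 0.96 against M28L, adjusted p = 0.444).

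In excitatory neurons, both variants lay below 5xFAD for Sema3a and above it for Plxnd1. Sema3a, a secreted repellent, had 83.6 and 90.9 normalized CPM in 5xFAD, 47.4 and 63.8 in 5xFAD-M28L and 60.9 and 63.2 in 5xFAD-P522R (-0.66, SE 0.141, adjusted p = 0.341, and -0.49, SE 0.135, adjusted p = 0.503). Plxnd1 had 18.9 and 16.6, 33.2 and 25.7, and 30.1 and 29.0 (0.74, adjusted p = 0.341, and 0.73, adjusted p = 0.501). Both contrasts use the same 5xFAD libraries. Slit3 had 1034 and 888 in 5xFAD, 1344 and 1186 in 5xFAD-M28L and 970 and 1031 in 5xFAD-P522R, so both M28L libraries lay above the other 4. Its log2 fold between the variants was -0.34 (SE 0.096, adjusted p = 0.764). For M28L against 5xFAD, which was outside the rule for naming and was chosen because DESeq2 called it, edgeR gave 0.40 (SE 0.097, adjusted p = 0.341) and DESeq2 an adjusted p of 0.00903, with 6.91e-05 to 0.599 over all alternatives.

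In OPCs, Sema5b had 306 and 331 normalized CPM in 5xFAD, 390 and 370.1 in 5xFAD-M28L and 348 and 339 in 5xFAD-P522R. The log2 fold for M28L was 0.26 (SE 0.062, adjusted p = 0.318), and DESeq2 called it (adjusted p = 0.0318), with 0.0117 to 0.737 over all alternatives. Sema3a lay below 5xFAD in both variants (-0.37 and -0.52, adjusted p = 0.431 and 0.321). Sema6b had 9.85 and 9.95 in 5xFAD and 15.3 and 14.7 in 5xFAD-P522R (0.60, SE 0.140, adjusted p = 0.267). Slit3, named because DESeq2 called it, had 54.6 and 45.8 in 5xFAD, 71.1 and 50.3 in 5xFAD-M28L and 96.3 and 69.7 in 5xFAD-P522R. Its log2 fold for P522R against 5xFAD was 0.73 (SE 0.191, adjusted p = 0.301 by edgeR and 0.0412 by DESeq2), with an adjusted p of 2.99e-10 (no filter on low counts) to 0.833 over all alternatives. With no filter, Slit3 was also called for P522R against M28L (0.44, adjusted p = 0.00334). Excitatory markers in the OPC gate summed to 67.8 to 106 CPM, and their part in the Slit3 values was not tested. Between the variants, Ephb1 was at 0.37 and Sema3e at -0.24 (adjusted p = 0.714 and 0.532).

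**Figure D5:**
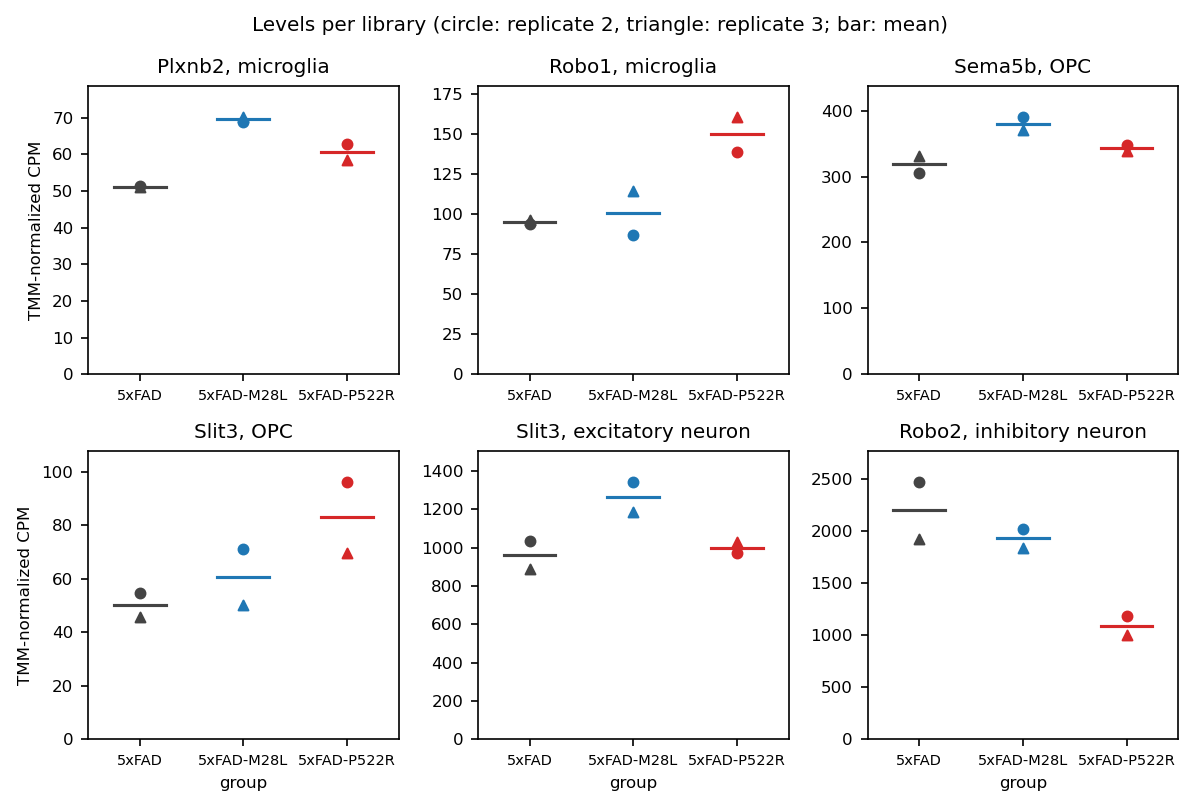
TMM-normalized CPM of 5 guidance genes in the cell types named above each panel (Slit3 in 2 types); circles are replicate 2, triangles replicate 3 and bars the mean of 2 libraries. Robo2 in inhibitory neurons of 5xFAD-P522R (1177 and 999.9) lies below the other 4 libraries, and Robo1 in microglia of 5xFAD-P522R (139 and 161) above them.

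In the remaining types the genes of smallest p had small differences or few UMIs. In oligodendrocytes Plxnb3 was at 0.27 and Robo2 at -0.39 for M28L against 5xFAD, Slit1 at 0.88 and Robo2 at -0.33 for P522R against 5xFAD, and Efna5 at 0.50 and Robo1 at -0.22 for P522R against M28L, with adjusted p of 0.390 to 0.773. In astrocytes the same contrasts gave Plxnb1 at 0.32 and Sema6d at -0.21, Ephb2 at 0.76 and Robo1 at -0.25, and Sema4c at 1.09 and Plxna4 at -0.46 (adjusted p of 0.560 to 0.929). In committed precursors they gave Ephb1 at 0.95 and Plxna4 at -1.57, Slit3 at 1.05 and Epha4 at -0.65, and Sema6a at 1.23 and Plxna2 at -2.24 (adjusted p of 0.605 to 0.992). In inhibitory neurons, M28L against 5xFAD gave Sema5b at 1.23 and Epha7 at -0.46 (both adjusted p = 0.959). Excitatory Robo1 was at 0.32 between the variants (adjusted p = 0.868).

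Endothelial Robo2 had 54.4 and 33.2 normalized CPM in 5xFAD, 102 and 57.2 in 5xFAD-M28L and 120 and 377 in 5xFAD-P522R (2.38 against 5xFAD, SE 0.571, adjusted p = 0.440; 1.51 against M28L). Without 5xFAD-P522R replicate 3, which held the 377 and was processed with another software version than the other 5 libraries, the log2 fold against 5xFAD was 1.39 (adjusted p = 0.898). The inhibitory marker list in this gate summed to 395 and 51.8 CPM in 5xFAD, 464 and 84.8 in 5xFAD-M28L and 1115 and 507 in 5xFAD-P522R, and its part was not tested. Without 5xFAD-P522R replicate 2, which leaves the 21 nuclei of replicate 3 as the group's only library, Robo1, Robo2 and Slit3 were called higher in endothelial cells for P522R against 5xFAD. Endothelial Plxnd1 lay lower in P522R than in 5xFAD (66.7 and 106 against 46.5 and 33.1; -1.03, adjusted p = 0.687) and Plxna2 lower than in M28L (-0.63, adjusted p = 0.719). For M28L against 5xFAD, Sema5a was at 1.15 and Sema3a, with no UMI in 1 library, had 33.3 and 6.64 normalized CPM in 5xFAD and 5.36 and 0 in 5xFAD-M28L (both adjusted p = 1.00). In pericytes Slit3 was at 0.98 and 1.33 against 5xFAD, Plxnb1 at -0.39 and -0.18, and between the variants Plxna4 was at 0.90 and Sema6a at -0.38 (adjusted p of 0.961 to 0.999).

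None of the partner genes passed in any type or contrast by edgeR. At an unadjusted p under 0.05 there were, of 25 tests of coreceptors, 3, 1 and 2 in the 3 contrasts in the order above (12%, 4% and 8%), beside 7.74%, 9.29% and 6.35% of tests over all genes. Other ligands and receptors had 16, 20 and 17 of 154 (10.4%, 12.99% and 11.0%), and Eph effectors 20, 21 and 15 of 151 (13.2%, 13.9% and 9.93%). Plexin effectors, with 13, 14 and 9 of 144 (9.03%, 9.72% and 6.25%), lay near the shares of all genes. Robo effectors had 8, 4 and 9 of 85 (9.41%, 4.71% and 10.6%), which is below that share for P522R against 5xFAD.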

How the data were processed

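The authors deposited 1 matrix of UMI counts per gene and barcode for each library, not normalized, made with Cell Ranger 6.1.2 (5.0.1 for 5xFAD-P522R replicate 3, per the file headers) on mm10, per the submitters' processing notes. Whether introns were counted is not given in the sources used here. Nuclei with at least 500 UMIs, 300 detected genes and no more than 5% of UMIs from mitochondria were kept, and no doublet caller was run. A nucleus took the type whose markers it detected in the largest share. It needed 4 or more distinct markers and a lead of 0.15 over the second type. These limits were set after looking at the data, and "near the limit" means within 0.05 of the lead. Nuclei that mix types can keep the lead where the types differ in the share of markers detected, so such nuclei may remain. The median share of own markers was 69.2% in microglia and 45.5% in inhibitory neurons. Types with at least 20 nuclei in each library were tested.

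UMI counts were summed per library and type. edgeR 4.0.16 (filterByExpr with a minimum count of 10, TMM scaling, quasi-likelihood F-test, Benjamini-Hochberg over all genes of a type and contrast, threshold 0.05) was fitted on all 6 libraries; between types a library term was added. Levels are CPM of the summed counts, and group contrasts use TMM-scaled CPM. The fits were tested on simulated counts, and DESeq2 1.42.0, other filters, scalings and gates and left-out libraries served as alternatives. Each library pools mice, and p-values measure the spread between libraries, which may be in part technical. Genes named in full are those with the 4 largest folds per type and those with the smallest p per direction and contrast (3 in microglia, 1 in other types). The members and lists were chosen with earlier results of these data known. Gene records are from GENCODE on GRCm38, R was 4.3.3 and Python 3.11.15.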

Additional observations from a re-analysis of the deposited data

How the results depend on the processing

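The count of guidance genes called between types (137 of a gene in a type) ran from 121 with a stricter gate, which left 8 types and no endothelial cells, to 145 with no filter on low counts, and from 134 to 139 without 1 library. Between groups, where edgeR called 0, 0 and 0 for M28L and for P522R against 5xFAD and between the variants, DESeq2 called 2, 2 and 0, and no filter on low counts gave 13, 21 and 22, 6 of the 21 in microglia (Robo1, Slit1, Slit3, Epha6, Ephb1 and Sema6a); the cause was not tested. RLE size factors, a minimum count of 50, fits of 4 libraries, nuclei with at least 1000 UMIs and the stricter gate called none. Without 1 library the ranges were 0 to 0, 0 to 5 and 0 to 1, the 5 and the 1 arising without 5xFAD-P522R replicate 2 (Robo1, Robo2 and Slit3 in endothelial cells, Epha4 and Slit3 in pericytes, and Slit3 in endothelial cells); the library left alone is then assumed to vary like the other groups.

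The replicate numbers come from the labels, which do not say that a number marks a shared batch. With a replicate block, 10, 12 and 3 were called, all in oligodendrocytes, OPCs, microglia and excitatory neurons. Slit3 in OPCs for P522R against 5xFAD had an adjusted p of 2.01e-05, Ephb1 0.00142 and Epha3 0.00207, and excitatory Sema3a for M28L against 5xFAD 0.0166. Deviations of same-numbered libraries correlated at 0.159 to 0.526 in oligodendrocytes, OPCs, microglia, astrocytes and excitatory neurons, and from -0.098 to 0.246 in the other 4 types, so the data hint at a pairing in the first 5, but with 2 libraries a group each correlation rests on 1 difference per group, and the numbers were treated as names.

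Of the named contrasts, 4 changed sign under an alternative, in 5 fits in all. In pericytes Plxnb1 for P522R against 5xFAD ran from -1.04 (without 5xFAD-P522R replicate 2) to 0.20 (without 5xFAD-P522R replicate 3), with 0.15 without 5xFAD replicate 2, Plxna4 for P522R against M28L from -5.63 (without 5xFAD-P522R replicate 3) to 2.12 (without replicate 2), and Sema6a from -1.75 (without replicate 3) to 0.51 (without replicate 2). In committed precursors Plxna2 for P522R against M28L went to 0.21 with the stricter gate, and was called with no filter on low counts (-2.22, adjusted p = 0.000729). Of the other named contrasts under an alternative, 854 kept direction and side of the threshold and 32 passed it. Depth limits the rarer types: committed precursors held 228273 to 465281 UMIs per library, endothelial cells 171436 to 606888 and pericytes 120061 to 304886. Whether the contrasts differ between types was not tested, since no guidance gene was called.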
